A study of Mus musculus with 4 samples.

Results

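Expression in 3T3-L1 cells that carried FLAG-CACUL1 was compared with that in 3T3-L1 cells that carried the empty FLAG vector. These are 2 of the 4 samples of the study, chosen because they share a vector and a selection drug, and the comparison covered 13104 genes. 3T3-L1 is a mouse fibroblast line committed to the fat lineage. Both lines were stable transfectants kept as G418-resistant colonies, and both were grown to confluence and induced in medium with 10% serum by rosiglitazone (5 µM), IBMX (0.5 mM), dexamethasone (1 µg/mL) and insulin (5 µg/mL). From day 2 medium with serum and insulin was added every 2 days, for which the study names none of the other inducers. RNA was taken on day 8. The other 2 samples, sh-Luc with a luciferase hairpin and sh-CACUL1 with a hairpin against CACUL1, went through the same differentiation but were selected with hygromycin B, and their values are given beside the comparison. Each condition was 1 stable line sequenced once, so no value here has a replicate and no test was made. An effect of CACUL1 and a difference between 2 separately selected lines cannot be told apart.

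Fat cell differentiation in this line is started by insulin, a glucocorticoid and a raised cAMP level. These act through the C/EBP factors to induce PPARγ, the nuclear receptor that binds rosiglitazone and switches on the genes of lipid uptake, synthesis and storage. At the same time the cells take down their fibroblast matrix and actin cytoskeleton and enlarge their mitochondria and peroxisomes. CACUL1 is a protein with a cullin domain that binds nuclear receptors, and the study asked whether it holds back PPARγ and the conversion to fat cells.

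Values were FPKM, fragments per kilobase of transcript scaled to a fixed number of mapped fragments. A change is the difference of log2(FPKM + 1) between FLAG-CACUL1 and FLAG, so that 1 stands for 2-fold and the change of genes with low FPKM is understated. From the steps between low FPKM values, the depth was estimated at 14200000 fragments in FLAG-CACUL1 and 14400000 in FLAG, so that 1 fragment equals about 0.035 FPKM for a 2 kb transcript. FLAG stood apart more than FLAG-CACUL1 did: 437 genes were at least 2-fold above the other 3 lines in FLAG and 186 were at least 2-fold below them, against 167 and 84 genes in FLAG-CACUL1. The same counts were 222 and 83 genes in sh-Luc and 260 and 724 genes in sh-CACUL1, which had the most genes below the other lines. Because FLAG stood apart, the values in sh-Luc are printed beside those in FLAG for the genes that matter most. The Cacul1 row (NM_001172096, chr19:60524696-60581023 of GRCm38) held 9.61 FPKM in FLAG, 11.8 FPKM in FLAG-CACUL1, 10.2 FPKM in sh-Luc and 5.39 FPKM in sh-CACUL1, a change of 0.27 against FLAG. The row stands for mouse transcripts, and whether reads of the FLAG-CACUL1 construct were counted in it is not known, so it does not give the degree of overexpression.

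At least 2-fold higher expression in FLAG-CACUL1 than in FLAG was found for 985 genes, or 7.52% of all genes, and at least 2-fold lower expression for 946 genes, or 7.22%. The median change over all genes was 0.09. Against sh-Luc, 660 genes (5.04%) were higher and 638 genes (4.87%) were lower, with a median of -0.10. The balance of higher and lower genes depended on the scaling between libraries. After median-of-ratios scaling 725 genes were higher and 1204 were lower than in FLAG, and after quantile normalization 861 were higher and 1048 lower. FLAG was the highest of the 4 lines for 756 of the 946 lower genes and the lowest for 606 of the 985 higher genes.

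**Figure D1:**
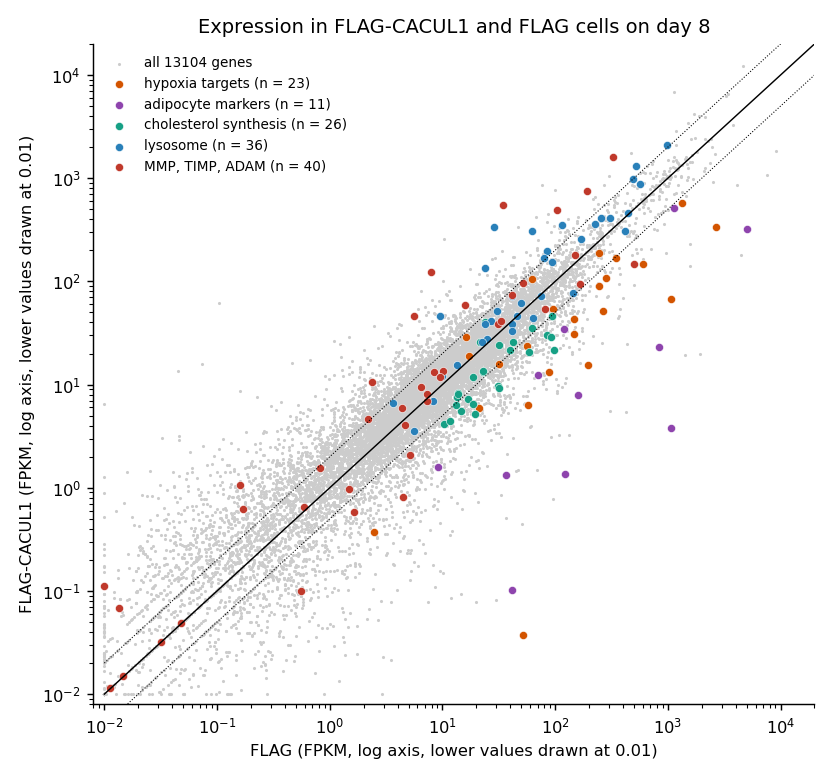
FPKM of each of the 13104 genes in FLAG (horizontal) and FLAG-CACUL1 (vertical), both on log axes, with 5 gene lists coloured, the line of equal values solid and the lines of 2-fold difference dotted. Adipocyte markers and all but 3 hypoxia targets lie below the solid line, most cholesterol synthesis genes lie between it and the lower dotted line or just beyond, and the lysosomal genes and matrix proteases lie mostly above it.

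Among genes with at least 1 FPKM in both lines, the largest increases were in secreted, matrix and cell cycle genes. Cxcl5 (NM_009141, chr5:90759298-90761625), a chemokine that draws neutrophils, had 10.3 FPKM in FLAG, 256 FPKM in FLAG-CACUL1, 9.82 FPKM in sh-Luc and 0.2995 FPKM in sh-CACUL1. FLAG-CACUL1 stood alone at the high end, and the change was 4.50 against FLAG. Timp2 (NM_011594, chr11:118301061-118355411), an inhibitor of matrix metalloproteinases, had 34.7 FPKM in FLAG, 544 FPKM in FLAG-CACUL1, 546 FPKM in sh-Luc and 55.8 FPKM in sh-CACUL1, so that FLAG-CACUL1 was level with sh-Luc and it was FLAG that was low. Mmp13 (NM_008607, chr9:7272514-7283333), the interstitial collagenase of mice, had 7.96 FPKM in FLAG, 123 FPKM in FLAG-CACUL1, 1.403 FPKM in sh-Luc and 1.12 FPKM in sh-CACUL1, and again FLAG-CACUL1 was the highest. The next largest changes were those of Itgbl1 (3.71), Thbs3 (3.59), Ogn (3.53), Ctsk (3.51), Ccnd1 (3.46), the growth factor Ptn (3.45) and the large adhesive matrix protein Svep1 (3.45). Ptn had 77.2 FPKM in FLAG, 856 FPKM in FLAG-CACUL1, 757 FPKM in sh-Luc and 147 FPKM in sh-CACUL1 and Svep1 had 2.49 FPKM in FLAG, 37.3 FPKM in FLAG-CACUL1, 14.9 FPKM in sh-Luc and 3.84 FPKM in sh-CACUL1, so that for Ptn too FLAG-CACUL1 and sh-Luc lay together above FLAG.

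Among the same genes, with at least 1 FPKM in both lines, the largest decreases mixed fat cell genes with others that are no part of the fat cell programme. Sbsn (NM_172205, chr7:30732674-30756134), a secreted epithelial protein, had 421 FPKM in FLAG, 5.44 FPKM in FLAG-CACUL1, 2.197 FPKM in sh-Luc and 8.61 FPKM in sh-CACUL1, and the imprinted, retrotransposon-derived gene Peg10 had 308 FPKM in FLAG, 5.58 FPKM in FLAG-CACUL1, 67.2 FPKM in sh-Luc and 25.9 FPKM in sh-CACUL1. For Sbsn the FLAG line was far above the other 3 lines, whereas Peg10 was lowest in FLAG-CACUL1 and intermediate in the hairpin lines. Ltc4s, the leukotriene C4 synthase, had 68.8 FPKM in FLAG and 1.49 FPKM in FLAG-CACUL1. Also among the 10 largest decreases of these genes were Cfd (-7.81), Scd1 (-6.51), Cidec (-5.72), Adipoq (-5.13), G0s2 (-4.98) and Cox7a1 (-4.69), which serve adipocyte secretion, lipid storage and mitochondrial respiration.

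The cell type marker lists separated the 2 lines. All 11 adipocyte markers in the table lay at least 2-fold below FLAG in FLAG-CACUL1, with a median change of -4.02, and their summed level was 8600.0 FPKM in FLAG, 918 FPKM in FLAG-CACUL1, 1748 FPKM in sh-Luc and 17964 FPKM in sh-CACUL1. Relative to sh-Luc 5 of the 11 were at least 2-fold lower and 0 were at least 2-fold higher (median -0.95). In bulk RNA, fewer fat cells in the culture and less fat cell RNA per cell cannot be told apart. Of 18 preadipocyte and mesenchymal markers, 7 were at least 2-fold higher and 1 was lower. The higher ones were S100a4 (474 FPKM in FLAG and 1761 FPKM in FLAG-CACUL1), Ly6a (97.9 FPKM in FLAG and 347 FPKM in FLAG-CACUL1), Thy1 (42.4 FPKM in FLAG and 144 FPKM in FLAG-CACUL1), the PDGF receptors Pdgfrb (1.67) and Pdgfra (1.58), Zfp521 (1.42) and Vcam1 (1.33). Dlk1, the preadipocyte factor that restrains differentiation, went the other way with 97.2 FPKM in FLAG, 39.4 FPKM in FLAG-CACUL1, 0.2204 FPKM in sh-Luc and 21.2 FPKM in sh-CACUL1. Against sh-Luc the mesenchymal list was split evenly, with 3 genes higher and 3 lower. In the brown and beige list 3 of 4 genes were lower, Cox7a1, Cox8b (22.5 FPKM in FLAG and 2.22 FPKM in FLAG-CACUL1) and Ebf2 (3.01 FPKM in FLAG and 0.424 FPKM in FLAG-CACUL1), and 8 further markers including Ucp1 were not in the table. None of these 4 genes was at least 2-fold lower or higher relative to sh-Luc (median -0.16). Cox7a1 (0.17) and Cox8b (-0.004) were near sh-Luc, and Ebf2 (-0.32) lay below it by less than 2-fold.

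Markers of other cell types were few. Of 7 macrophage markers in the table, Lyz2 (8.12 FPKM in FLAG and 66.5 FPKM in FLAG-CACUL1), Cd14 (15.04 FPKM in FLAG and 42.2 FPKM in FLAG-CACUL1) and Itgb2 (0.664 FPKM in FLAG and 5.62 FPKM in FLAG-CACUL1) were higher and Cd68 (16.2 FPKM in FLAG and 1.44 FPKM in FLAG-CACUL1) was lower. Csf1r, Mrc1 and Aif1 were under 1 FPKM in both lines, and 5 others, Adgre1, Itgam, Ptprc, Tyrobp and Fcer1g, were not in the table. The summed level of the 7 genes was 41.5 FPKM in FLAG, 117 FPKM in FLAG-CACUL1, 15.7 FPKM in sh-Luc and 8.33 FPKM in sh-CACUL1. The endothelial genes Pecam1 and Vwf were under 1 FPKM in both lines. Of the bone and cartilage genes Sox9 (5.47 FPKM in FLAG and 16.3 FPKM in FLAG-CACUL1) was higher, Alpl (11.6 FPKM in FLAG and 2.28 FPKM in FLAG-CACUL1) was lower, and Runx2 (0.48) and Spp1 (0.21) were within 2-fold. The one muscle gene in the table, Des, changed by -0.43.

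**Figure D2:**
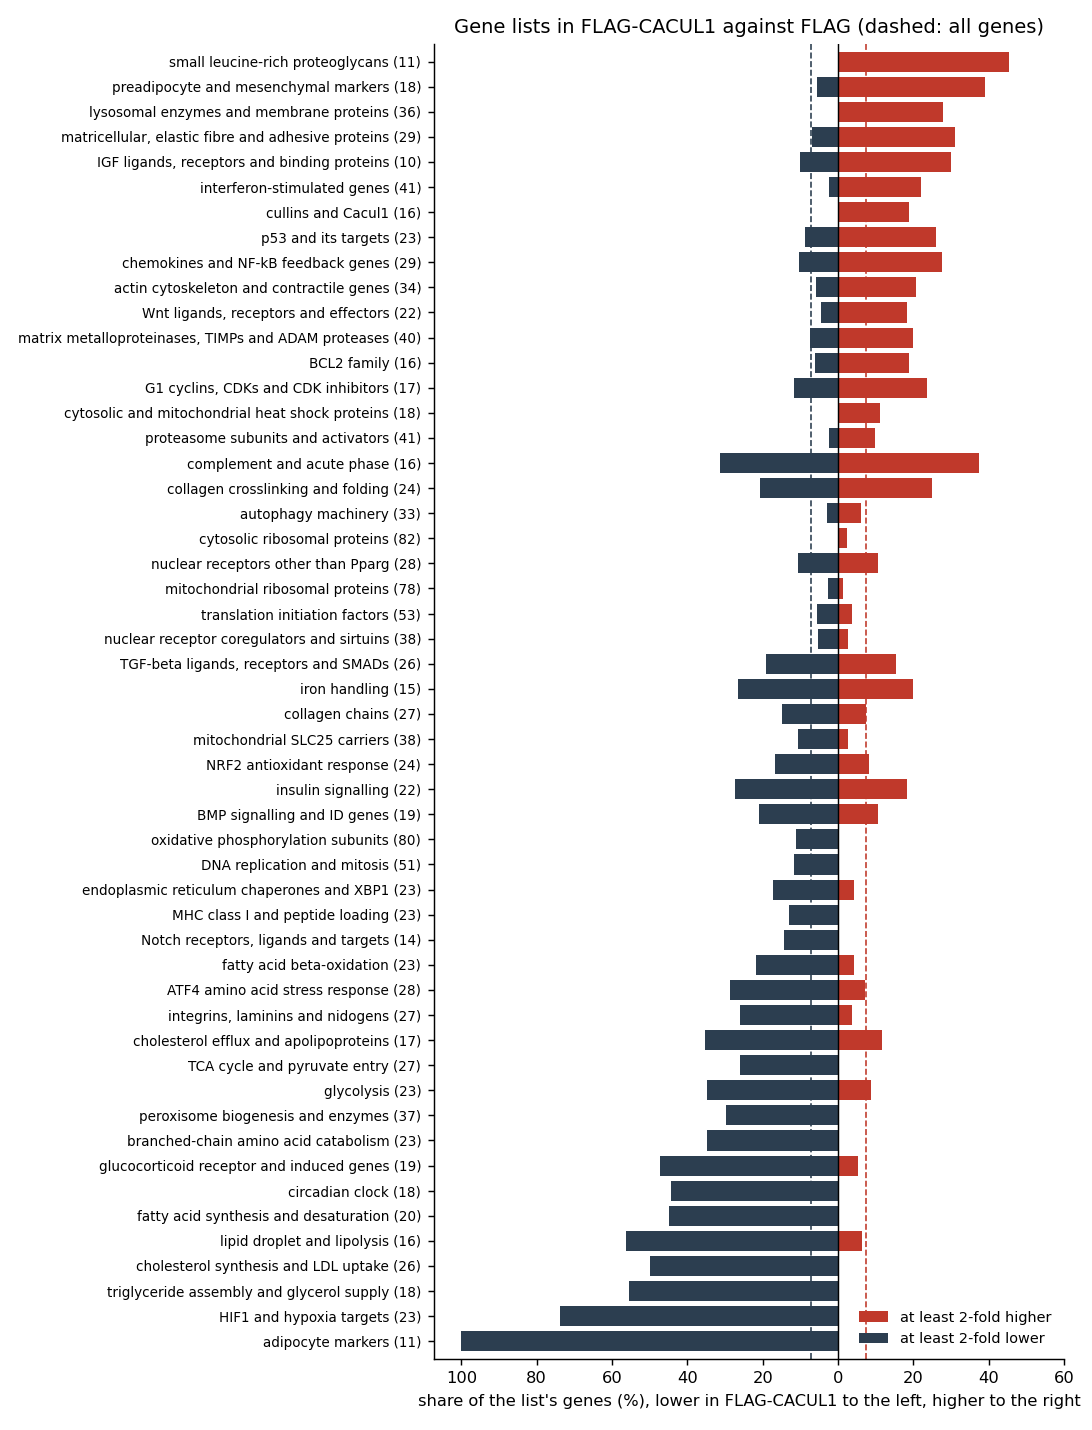
Share of the genes of each list (number of genes in brackets, lists of at least 10 genes) that were at least 2-fold lower (left) or higher (right) in FLAG-CACUL1 than in FLAG, with dashed lines at the shares over all genes, 7.22% and 7.52%. Adipocyte markers, hypoxia targets and triglyceride, cholesterol and lipid droplet genes reach farthest to the left, and small leucine-rich proteoglycans and mesenchymal markers farthest to the right.

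Among the lists of at least 10 genes, the largest share of lower genes outside the fat cell programme was in the hypoxia response. HIF1 is a transcription factor whose α subunit is destroyed in oxygen by the prolyl hydroxylases EGLN1, EGLN2 and EGLN3 and which otherwise binds the bases ACGTG ahead of genes for glucose uptake, glycolysis, blood vessel growth and pH control. These bases were searched for in the 250 bases upstream of the transcript starts that RefSeq gives for GRCm38.p6, on both strands and with overlapping matches counted. Of the 23 genes of the list 20 had a window, with 27 windows in all. A match was found in 16 of the 27 windows (59.3%), which belonged to 15 genes, against 16.6% of all 32851 windows. A match is a description and no evidence of binding. The stretches before Car9, Ankrd37, Bnip3 and Egln3, genes of the list with a match and large changes, are printed 5′ to 3′ on the strand of the gene, with the matching bases in capitals and the last base next to the start. They are chr4:43506876-43507025 (plus strand), chr8:45999851-46000000 (minus strand), chr7:138909507-138909656 (minus strand) and chr12:54203875-54204124 (minus strand). In Bnip3 the 2 matches overlap as CACGTG, which reads the same on both strands.
Car9: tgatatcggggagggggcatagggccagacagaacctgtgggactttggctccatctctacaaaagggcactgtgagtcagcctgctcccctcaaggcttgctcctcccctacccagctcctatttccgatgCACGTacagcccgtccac
Ankrd37: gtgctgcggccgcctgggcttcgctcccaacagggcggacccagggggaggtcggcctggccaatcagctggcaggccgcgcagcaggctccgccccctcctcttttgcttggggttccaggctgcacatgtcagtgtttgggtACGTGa
Bnip3: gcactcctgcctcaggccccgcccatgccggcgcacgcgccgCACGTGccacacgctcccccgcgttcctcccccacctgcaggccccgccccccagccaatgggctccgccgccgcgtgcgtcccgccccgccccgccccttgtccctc
Egln3: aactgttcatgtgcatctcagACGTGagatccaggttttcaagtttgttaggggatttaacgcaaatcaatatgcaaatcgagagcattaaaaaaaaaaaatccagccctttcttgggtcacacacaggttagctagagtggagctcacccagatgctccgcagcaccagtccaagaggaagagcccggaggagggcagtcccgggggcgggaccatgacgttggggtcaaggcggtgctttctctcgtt

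Of the 23 hypoxia genes 17 were at least 2-fold below FLAG in FLAG-CACUL1 and none was at least 2-fold higher, with a median change of -1.44. Car9, the carbonic anhydrase that exports acid from hypoxic cells, had 51.6 FPKM in FLAG, 0.0375 FPKM in FLAG-CACUL1, 0.178 FPKM in sh-Luc and 0.924 FPKM in sh-CACUL1, close in FLAG-CACUL1 to what 1 fragment gives. Slc2a1, the glucose transporter GLUT1, had 1063 FPKM in FLAG, 68.2 FPKM in FLAG-CACUL1, 60.4 FPKM in sh-Luc and 14.5 FPKM in sh-CACUL1. Adm, the vasodilator peptide adrenomedullin, had 196 FPKM in FLAG, 15.5 FPKM in FLAG-CACUL1, 13.1 FPKM in sh-Luc and 0.525 FPKM in sh-CACUL1. In each of these FLAG was the high line and the other 3 lay far below.

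The oxidase Ero1a, which forms disulfide bonds in the endoplasmic reticulum, had 2673 FPKM in FLAG, 339 FPKM in FLAG-CACUL1, 119 FPKM in sh-Luc and 52.3 FPKM in sh-CACUL1, and the mitophagy receptor Bnip3 had 608 FPKM in FLAG, 148 FPKM in FLAG-CACUL1, 37.3 FPKM in sh-Luc and 57.1 FPKM in sh-CACUL1. Vegfa, the main vessel growth factor, had 266 FPKM in FLAG, 51.5 FPKM in FLAG-CACUL1, 27.8 FPKM in sh-Luc and 117 FPKM in sh-CACUL1. Egln3 had 146 FPKM in FLAG, 30.8 FPKM in FLAG-CACUL1, 8.603 FPKM in sh-Luc and 7.57 FPKM in sh-CACUL1 and Ankrd37 had 87.8 FPKM in FLAG, 13.3 FPKM in FLAG-CACUL1, 1.35 FPKM in sh-Luc and 2.59 FPKM in sh-CACUL1. For these genes FLAG-CACUL1 lay between FLAG and sh-Luc. The genes of the transcription factors moved apart: Hif1a had 62.1 FPKM in FLAG and 106 FPKM in FLAG-CACUL1, a change of 0.76, and Epas1, which encodes HIF2α, had 2.47 FPKM in FLAG and 0.374 FPKM in FLAG-CACUL1. FLAG was the highest of the 4 lines for 20 of the 23 genes. Measured against sh-Luc in place of FLAG, the same list was turned round, with 10 genes at least 2-fold higher in FLAG-CACUL1, 0 lower and a median of 0.89.

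Glycolysis genes followed the same order of lines. Of 23 genes 8 lay at least 2-fold below FLAG in FLAG-CACUL1 and 2 were higher, with a median of -0.83, and FLAG was the highest line for 19 of them. Gapdh had 9160.3 FPKM in FLAG, 1851 FPKM in FLAG-CACUL1, 1342 FPKM in sh-Luc and 1418 FPKM in sh-CACUL1, a value that may include reads from its many processed copies. The hexokinase Hk2 had 78.6 FPKM in FLAG, 19.9 FPKM in FLAG-CACUL1, 10.4 FPKM in sh-Luc and 12.7 FPKM in sh-CACUL1, and the phosphofructokinase Pfkp had 83.4 FPKM in FLAG, 24.5 FPKM in FLAG-CACUL1, 14.7 FPKM in sh-Luc and 7.43 FPKM in sh-CACUL1. Pgk1 (-0.57), Pkm (-0.31), Ldha (-0.79), Aldoa (-0.83) and Tpi1 (-0.91) were lower by less than 2-fold.

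The enolase genes moved apart. Eno2, the neuronal form, had 37.02 FPKM in FLAG and 1.28 FPKM in FLAG-CACUL1, Eno1, the ubiquitous form, had 1131 FPKM in FLAG and 703 FPKM in FLAG-CACUL1, and Eno3, the muscle form, had 3.28 FPKM in FLAG and 31.4 FPKM in FLAG-CACUL1. The muscle phosphoglycerate mutase Pgam2 was also higher (0.6399 FPKM in FLAG and 4.06 FPKM in FLAG-CACUL1), while its ubiquitous counterpart Pgam1 was lower (1325 FPKM in FLAG and 737 FPKM in FLAG-CACUL1). Both muscle forms were therefore higher where the more abundant forms were lower. Against sh-Luc 7 glycolysis genes were at least 2-fold higher in FLAG-CACUL1 and 0 were lower.

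**Figure D3:**
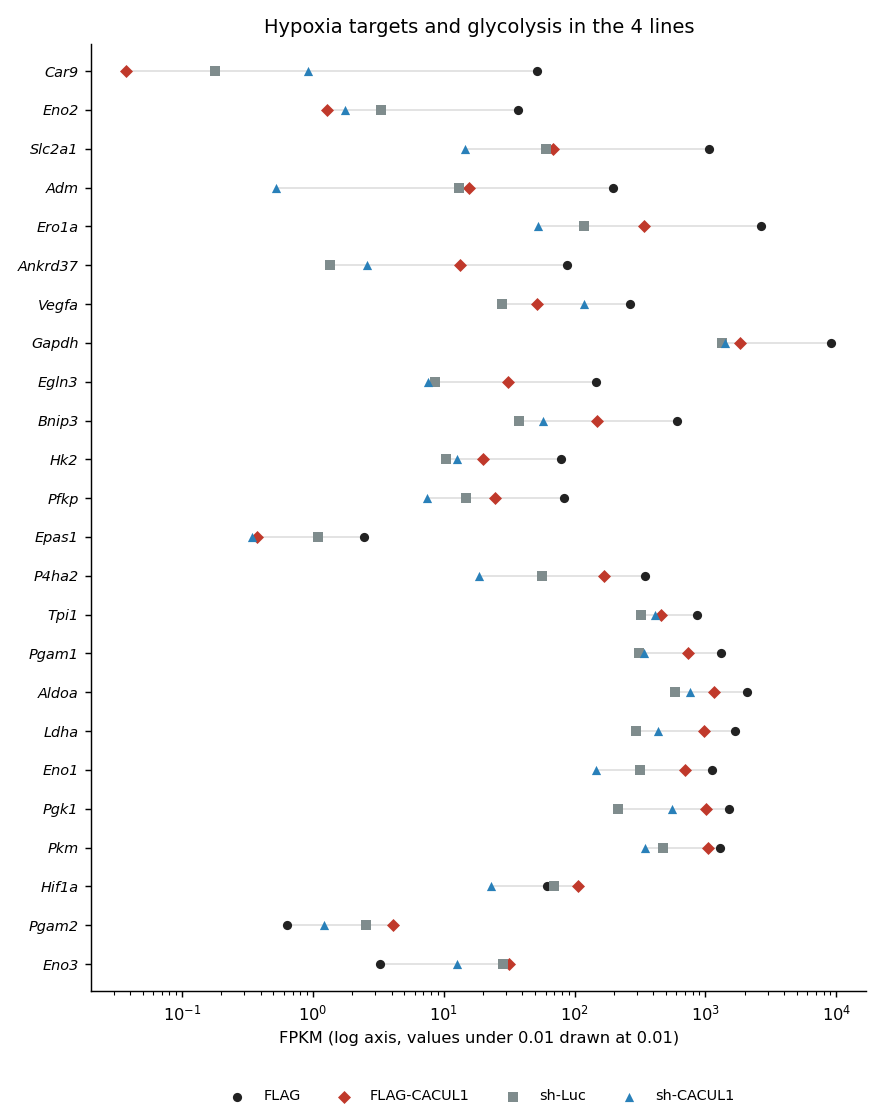
FPKM (log axis) of the hypoxia and glycolysis genes named in the text in the 4 lines, 1 row per gene, sorted from the most negative change between FLAG-CACUL1 and FLAG at the top to the most positive at the bottom. FLAG (black circles) is the rightmost point for most genes, and FLAG-CACUL1 (red diamonds) lies between it and the hairpin lines for many, down to Eno3 and Pgam2 where FLAG is lowest.

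The circadian clock list held 18 genes, of which 8 were at least 2-fold lower and 0 were at least 2-fold higher (median -0.85). Against sh-Luc the direction turned, with 3 higher, 1 lower and a median of 0.07. The clock runs on BMAL1 and CLOCK, which activate the Per, Cry and Nr1d genes, whose products then repress them. Among the repressors, Per1 had 23.4 FPKM in FLAG, 4.94 FPKM in FLAG-CACUL1, 22.1 FPKM in sh-Luc and 13.8 FPKM in sh-CACUL1, Per2 (-1.27), Cry2 (-1.06), Bhlhe40 (-1.60), Bhlhe41 (-2.09), Nfil3 (-1.34) and Ciart (-1.62) were also lower, and Nr1d1 was just under the cut-off (-0.99). The activators Arntl, which encodes BMAL1, and Clock changed by 0.44 and 0.27. Per1 was lower than in any other line, while Bhlhe41 and Ciart were high in FLAG and close together in FLAG-CACUL1 and sh-Luc. The E-box CACGTG, which the clock factors bind, was in 6 of 20 windows of the list (30.0%) and in 6.02% of all windows.

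Part of the list of glucocorticoid genes was also lower. The inducing medium holds dexamethasone, which activates the receptor encoded by Nr3c1. Dexamethasone is not named for the insulin medium that followed until RNA was taken on day 8. Of 19 genes on this list 9 were at least 2-fold lower and 1 was higher, and against sh-Luc 9 were lower and 3 were higher. The metallothioneins, which bind zinc and copper, had the highest levels: Mt2 had 4503 FPKM in FLAG, 180.3 FPKM in FLAG-CACUL1, 42.1 FPKM in sh-Luc and 0.984 FPKM in sh-CACUL1 and Mt1 had 4075 FPKM in FLAG, 851 FPKM in FLAG-CACUL1, 1102 FPKM in sh-Luc and 621 FPKM in sh-CACUL1. These 2 genes are close copies, so that the split of reads between them is uncertain, but both were highest in FLAG.

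Hsd11b1, which regenerates active glucocorticoid inside cells, had 364 FPKM in FLAG, 44.1 FPKM in FLAG-CACUL1, 13.6 FPKM in sh-Luc and 35.7 FPKM in sh-CACUL1, and Angptl4, an inhibitor of lipoprotein lipase, had 379 FPKM in FLAG, 53.5 FPKM in FLAG-CACUL1, 95.95 FPKM in sh-Luc and 318 FPKM in sh-CACUL1. Zbtb16 (3.93 FPKM in FLAG and 1.14 FPKM in FLAG-CACUL1), Dusp1 (13.8 FPKM in FLAG and 6.07 FPKM in FLAG-CACUL1) and Nedd9 (16.5 FPKM in FLAG and 7.57 FPKM in FLAG-CACUL1) were lower as well, and Cebpd, an early adipogenic factor, was higher (26.98 FPKM in FLAG and 55.7 FPKM in FLAG-CACUL1). The common receptor targets did not behave as 1 block. Fkbp5 had 24.2 FPKM in FLAG, 24.2 FPKM in FLAG-CACUL1, 85.2 FPKM in sh-Luc and 169 FPKM in sh-CACUL1, Tsc22d3 had 33.1 FPKM in FLAG, 35.8 FPKM in FLAG-CACUL1, 158 FPKM in sh-Luc and 108 FPKM in sh-CACUL1 and Sgk1 had 6.06 FPKM in FLAG, 12.8 FPKM in FLAG-CACUL1, 103 FPKM in sh-Luc and 69.8 FPKM in sh-CACUL1, so that both G418-selected lines lay below both hairpin lines. Nr3c1 itself changed by 0.38.

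Many genes of cholesterol synthesis were lower against both controls. The pathway is run by SREBP2, which is released when sterols are scarce and held back by the INSIG proteins when they are plentiful. Of 26 genes 13 were at least 2-fold below FLAG in FLAG-CACUL1 and none was at least 2-fold higher (median -0.97). Against sh-Luc 10 were lower and 2 were higher (median -0.80). FLAG-CACUL1 was the lowest of the 4 lines for 18 of the 26 genes.

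Insig1, which holds SREBP2 back, had 97.8 FPKM in FLAG, 21.7 FPKM in FLAG-CACUL1, 51.1 FPKM in sh-Luc and 131 FPKM in sh-CACUL1. Of the early enzymes, Hmgcs1 had 61.9 FPKM in FLAG, 35.4 FPKM in FLAG-CACUL1, 57.9 FPKM in sh-Luc and 71.4 FPKM in sh-CACUL1 and Pmvk had 19.4 FPKM in FLAG, 5.19 FPKM in FLAG-CACUL1, 18.95 FPKM in sh-Luc and 37.6 FPKM in sh-CACUL1. Hmgcs1 was thus lower by less than 2-fold against FLAG and Pmvk by more. Fdps had 93.01 FPKM in FLAG, 45.8 FPKM in FLAG-CACUL1, 124 FPKM in sh-Luc and 208 FPKM in sh-CACUL1 and Idi1 had 13.1 FPKM in FLAG, 6.36 FPKM in FLAG-CACUL1, 28.8 FPKM in sh-Luc and 34.3 FPKM in sh-CACUL1. Of the enzymes that make and close the sterol ring, Sqle had 91.9 FPKM in FLAG, 29.01 FPKM in FLAG-CACUL1, 41.3 FPKM in sh-Luc and 27.9 FPKM in sh-CACUL1, Lss had 18.6 FPKM in FLAG, 6.53 FPKM in FLAG-CACUL1, 20.4 FPKM in sh-Luc and 18.5 FPKM in sh-CACUL1 and Msmo1 had 84.6 FPKM in FLAG, 29.9 FPKM in FLAG-CACUL1, 78.2 FPKM in sh-Luc and 148 FPKM in sh-CACUL1, and in these as in Fdps and Idi1 the FLAG-CACUL1 value was the lowest or close to it. Srebf2, which encodes SREBP2, changed by -0.69. An exception was Insig2, which was highest in FLAG and higher in FLAG-CACUL1 than in sh-Luc, with 58.6 FPKM in FLAG, 20.7 FPKM in FLAG-CACUL1, 15.3 FPKM in sh-Luc and 13.7 FPKM in sh-CACUL1. Scap was slightly higher than in FLAG (0.27). Another exception was Ebp, with 23.8 FPKM in FLAG, 40.4 FPKM in FLAG-CACUL1, 15.8 FPKM in sh-Luc and 38.1 FPKM in sh-CACUL1. It was highest in FLAG-CACUL1, by 0.74 against FLAG and 1.30 against sh-Luc.

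**Figure D4:**
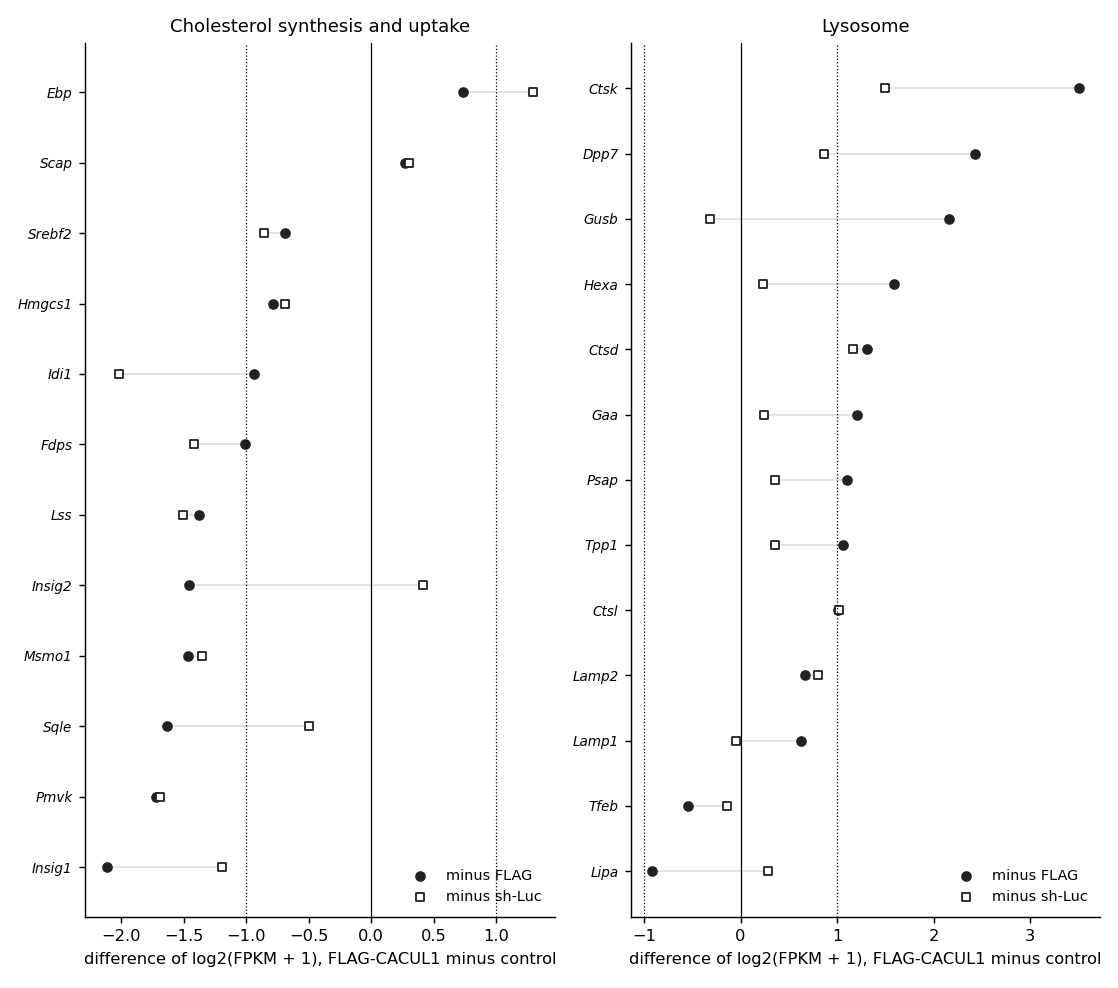
Difference of log2(FPKM + 1) between FLAG-CACUL1 and FLAG (filled circles) and between FLAG-CACUL1 and sh-Luc (open squares) for the genes named in the text from the lists of cholesterol synthesis and uptake (left) and of the lysosome (right), with dotted lines at 2-fold. Most cholesterol genes lie left of 0 against both controls, and the lysosomal genes with the largest values lie right of 0 against FLAG and nearer to 0 against sh-Luc.

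Cholesterol export and carriage behaved differently. Of 17 genes 6 were lower and 2 were higher (median -0.33), whereas against sh-Luc 1 was lower and 5 were higher (median 0.54). The lower ones included Scarb1, the receptor for high-density lipoprotein (125 FPKM in FLAG and 11.7 FPKM in FLAG-CACUL1), Apoc1 (62.3 FPKM in FLAG and 13.2 FPKM in FLAG-CACUL1), the sterol exporters Abca1 (27.7 FPKM in FLAG and 11.02 FPKM in FLAG-CACUL1) and Abcg1 (5.401 FPKM in FLAG and 0.485 FPKM in FLAG-CACUL1), and Nr1h3, which encodes the sterol sensor LXRα (14.5 FPKM in FLAG and 4.04 FPKM in FLAG-CACUL1). Apod, a carrier of small lipids, had 10.2 FPKM in FLAG, 102 FPKM in FLAG-CACUL1, 369 FPKM in sh-Luc and 51.7 FPKM in sh-CACUL1, and Lrp1, a large endocytic receptor, had 143 FPKM in FLAG, 328 FPKM in FLAG-CACUL1, 145 FPKM in sh-Luc and 23.7 FPKM in sh-CACUL1. Abca1 and Nr1h3 were nevertheless higher in FLAG-CACUL1 than in sh-Luc, by 1.54 and 1.31.

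The lipid lists held many genes lower than FLAG and fewer lower than sh-Luc. Of 18 genes of triglyceride assembly 10 were lower and 0 were higher (median -1.20), led by Gpd1, which makes the glycerol backbone (46.9 FPKM in FLAG, 1.49 FPKM in FLAG-CACUL1, 16.3 FPKM in sh-Luc and 213 FPKM in sh-CACUL1). Dgat2, which adds the last fatty acid, had 261 FPKM in FLAG, 25.1 FPKM in FLAG-CACUL1, 2.86 FPKM in sh-Luc and 6.24 FPKM in sh-CACUL1, so that FLAG was highest and both hairpin lines were low, whereas its counterpart Dgat1 had 93.3 FPKM in FLAG, 22.1 FPKM in FLAG-CACUL1, 34.96 FPKM in sh-Luc and 202 FPKM in sh-CACUL1. Lpin1 (-2.82), Agpat2 (-2.78), Gpat3 (-2.52) and the glycerol channel Aqp7 (-2.59) were also lower. Against sh-Luc 3 of the 18 genes were lower and 1 was higher (median -0.18). Of 16 lipid droplet and lipolysis genes 9 were lower, among them Lipe (103 FPKM in FLAG and 8.605 FPKM in FLAG-CACUL1) and Pnpla2 (48.4 FPKM in FLAG and 13.1 FPKM in FLAG-CACUL1), which encode the 2 main lipases, and the seipin gene Bscl2 (4.43 FPKM in FLAG and 1.08 FPKM in FLAG-CACUL1). Ldah, a droplet-associated hydrolase, was the one higher member (9.68 FPKM in FLAG and 23.5 FPKM in FLAG-CACUL1), and Abhd5 (-0.15), the activator of the lipase of Pnpla2, was within 2-fold. Against sh-Luc 4 of the 16 genes were lower and 2 were higher (median -0.17).

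Relative to FLAG, fatty acid synthesis was split by step. Of 20 genes 9 were lower and none was at least 2-fold higher. The lower genes included Thrsp (-4.19) and the desaturases Scd1, Scd2 (503 FPKM in FLAG and 92.1 FPKM in FLAG-CACUL1), Fads1 (146 FPKM in FLAG and 52.05 FPKM in FLAG-CACUL1) and Fads2 (125 FPKM in FLAG and 47.2 FPKM in FLAG-CACUL1). The synthase Fasn (16.8 FPKM in FLAG and 20.4 FPKM in FLAG-CACUL1), the carboxylases Acaca (9.37 FPKM in FLAG and 10.2 FPKM in FLAG-CACUL1) and Acacb (2.32 FPKM in FLAG and 1.45 FPKM in FLAG-CACUL1), the malic enzyme Me1 (33.04 FPKM in FLAG and 25.3 FPKM in FLAG-CACUL1) and the elongase Elovl6 (3.36 FPKM in FLAG and 5.02 FPKM in FLAG-CACUL1) were within 2-fold. Relative to sh-Luc 3 of the 20 genes were lower and 0 were higher (median -0.14), and this split was not seen. Fads1 (-0.03) and Fads2 (0.28) were near sh-Luc, as were Acaca (-0.14), Acacb (0.09) and Me1 (0.01). Scd1 (-0.83), Scd2 (-0.97) and Fasn (-0.83) lay below sh-Luc by less than 2-fold and Elovl6 (-1.25) by more. Thrsp, a lipogenic cofactor, had 32.8 FPKM in FLAG, 0.859 FPKM in FLAG-CACUL1, 7.52 FPKM in sh-Luc and 564 FPKM in sh-CACUL1, and Srebf1, which encodes SREBP1, had 31.01 FPKM in FLAG and 12.2 FPKM in FLAG-CACUL1. In caveolae, the cholesterol-rich pits that cover the fat cell membrane, Cav1 had 603 FPKM in FLAG, 166 FPKM in FLAG-CACUL1, 212 FPKM in sh-Luc and 314 FPKM in sh-CACUL1, Cav2 changed by -1.10 and Cavin2 by -1.68, and 3 of 8 genes were lower in all.

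Peroxisomes, which shorten very long fatty acids, had 11 of 37 genes lower and 0 at least 2-fold higher. Against sh-Luc 1 was lower and 1 was higher. Pex11g (12.8 FPKM in FLAG and 2.97 FPKM in FLAG-CACUL1) and Pex16 (42.4 FPKM in FLAG and 13.05 FPKM in FLAG-CACUL1), which serve division and membrane assembly, and Scp2, a sterol carrier and thiolase (118 FPKM in FLAG and 37.1 FPKM in FLAG-CACUL1), were lower, while catalase, Cat (0.07), and Abcd3 (0.27) were within 2-fold. In mitochondrial β-oxidation 5 of 23 genes were lower than in FLAG, and 1 was lower than in sh-Luc. Acadm, the medium-chain dehydrogenase, had 55.5 FPKM in FLAG, 16.9 FPKM in FLAG-CACUL1, 81.1 FPKM in sh-Luc and 313 FPKM in sh-CACUL1, and Acadvl and Hadhb changed by -1.42 and -1.41. Cpt1a, the gate by which long fatty acids enter, was the one higher gene with 6.02 FPKM in FLAG, 22.8 FPKM in FLAG-CACUL1, 21.7 FPKM in sh-Luc and 6.69 FPKM in sh-CACUL1, where FLAG and sh-CACUL1 were low and FLAG-CACUL1 and sh-Luc were high.

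Mitochondrial metabolism was lower in selected enzymes and close to the background elsewhere. Of 27 genes of the TCA cycle and pyruvate entry 7 were lower. Pyruvate carboxylase, Pcx, which supplies oxaloacetate for lipid synthesis, had 216 FPKM in FLAG, 29.8 FPKM in FLAG-CACUL1, 84.3 FPKM in sh-Luc and 349.5 FPKM in sh-CACUL1, and Idh3a had 70.8 FPKM in FLAG, 20.95 FPKM in FLAG-CACUL1, 36.8 FPKM in sh-Luc and 100.1 FPKM in sh-CACUL1. In branched-chain amino acid breakdown, which feeds lipid synthesis in fat cells, 8 of 23 genes were lower, with Aldh6a1 at 31.01 FPKM in FLAG, 8.22 FPKM in FLAG-CACUL1, 30.2 FPKM in sh-Luc and 113 FPKM in sh-CACUL1, Bckdha at 66.5 FPKM in FLAG and 20.8 FPKM in FLAG-CACUL1, Dbt at 8.203 FPKM in FLAG and 1.76 FPKM in FLAG-CACUL1 and Bcat2 at 58.1 FPKM in FLAG and 26.4 FPKM in FLAG-CACUL1. Citrate synthase, Cs, changed by 0.15.

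For the 80 subunits of oxidative phosphorylation the median change was -0.27, with 9 lower (11.2%) and 0 at least 2-fold higher, and after Cox7a1 and Cox8b the next largest change was that of Ndufb9 (573 FPKM in FLAG and 207 FPKM in FLAG-CACUL1). Of 78 mitochondrial ribosomal proteins 1 was higher and 2 were lower (median -0.04). Of 38 mitochondrial carriers 4 were lower and 1 was higher, with Slc25a10, the dicarboxylate carrier, at 42.5 FPKM in FLAG and 9.36 FPKM in FLAG-CACUL1 and the citrate carrier Slc25a1 at 241 FPKM in FLAG and 96.1 FPKM in FLAG-CACUL1.

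Extracellular matrix genes differed by class. Of 40 matrix metalloproteinases, their inhibitors and ADAM proteases, 8 were higher and 3 were lower than in FLAG, against 5 and 7 relative to sh-Luc. Mmp2, a gelatinase that cuts basement membrane collagen, had 324 FPKM in FLAG, 1624 FPKM in FLAG-CACUL1, 1504 FPKM in sh-Luc and 293 FPKM in sh-CACUL1. Mmp14, the membrane protease that activates it, had 191 FPKM in FLAG, 750.0 FPKM in FLAG-CACUL1, 932 FPKM in sh-Luc and 145 FPKM in sh-CACUL1. With Timp2, which takes part in that activation as well as in inhibition, these genes had 1 pattern, in which FLAG-CACUL1 and sh-Luc were high and FLAG and sh-CACUL1 were low.

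The stromelysin Mmp3 had 104 FPKM in FLAG, 487 FPKM in FLAG-CACUL1, 22.1 FPKM in sh-Luc and 1.68 FPKM in sh-CACUL1, which with Mmp13 set FLAG-CACUL1 above each of the other lines. Adamts2, which removes the end of fibrillar procollagens, had 5.59 FPKM in FLAG, 46.6 FPKM in FLAG-CACUL1, 48.8 FPKM in sh-Luc and 7.74 FPKM in sh-CACUL1. Mmp19 (15.8 FPKM in FLAG and 58.7 FPKM in FLAG-CACUL1) and Adamts5 (2.39 FPKM in FLAG and 10.7 FPKM in FLAG-CACUL1) were higher too. Mmp11, a protease of remodelling fat tissue and tumour stroma, was lower, with 501 FPKM in FLAG, 147 FPKM in FLAG-CACUL1, 47.1 FPKM in sh-Luc and 6.71 FPKM in sh-CACUL1, and so were Adamts9 (4.46 FPKM in FLAG and 0.8199 FPKM in FLAG-CACUL1) and Adam8 (5.17 FPKM in FLAG and 2.07 FPKM in FLAG-CACUL1).

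Small leucine-rich proteoglycans, which coat collagen fibrils and bind growth factors, had 5 of 11 genes higher and 0 at least 2-fold lower. Decorin, Dcn, had 99.7 FPKM in FLAG, 770.0 FPKM in FLAG-CACUL1, 106 FPKM in sh-Luc and 9.599 FPKM in sh-CACUL1, and biglycan, Bgn, had 1703 FPKM in FLAG, 4156 FPKM in FLAG-CACUL1, 1228 FPKM in sh-Luc and 822 FPKM in sh-CACUL1, both highest in FLAG-CACUL1. Osteoglycin, Ogn, had 1.23 FPKM in FLAG, 24.8 FPKM in FLAG-CACUL1, 264 FPKM in sh-Luc and 5.77 FPKM in sh-CACUL1, so that it was higher than in FLAG but lower than in sh-Luc, with a difference of -3.36. Prelp (1.59) and Omd (1.28) were the other higher members. Lumican, Lum, changed by 0.17, and Aspn had 65.5 FPKM in FLAG, 112 FPKM in FLAG-CACUL1 and 569.6 FPKM in sh-Luc.

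Of 29 matricellular, elastic fibre and adhesive genes 9 were higher and 2 were lower. The thrombospondins, which bind cells, collagen and TGF-β, were higher together: Thbs1 had 12.6 FPKM in FLAG, 47.4 FPKM in FLAG-CACUL1, 74.98 FPKM in sh-Luc and 10.7 FPKM in sh-CACUL1, Thbs2 had 29.2 FPKM in FLAG, 169 FPKM in FLAG-CACUL1, 124 FPKM in sh-Luc and 18.3 FPKM in sh-CACUL1 and Thbs3 had 1.49 FPKM in FLAG, 29.1 FPKM in FLAG-CACUL1, 17.2 FPKM in sh-Luc and 2.81 FPKM in sh-CACUL1. Postn, periostin, had 219 FPKM in FLAG, 625 FPKM in FLAG-CACUL1, 749 FPKM in sh-Luc and 151 FPKM in sh-CACUL1, and Tgfbi had 29.4 FPKM in FLAG, 105 FPKM in FLAG-CACUL1, 4.98 FPKM in sh-Luc and 2.56 FPKM in sh-CACUL1. Vcan (1.06), Eln (1.11) and Mfap4 (1.41) were also past the cut-off, while Fn1, fibronectin, had 928 FPKM in FLAG and 986 FPKM in FLAG-CACUL1, a change of 0.09. The 2 lower genes were Ccn1 and Sparcl1. Ccn1, an immediate target of YAP and serum response factor that is also known as Cyr61, had 59.6 FPKM in FLAG, 3.87 FPKM in FLAG-CACUL1, 94.5 FPKM in sh-Luc and 18.7 FPKM in sh-CACUL1, the lowest of the 4 lines in FLAG-CACUL1, and Sparcl1 had 127 FPKM in FLAG, 38.1 FPKM in FLAG-CACUL1, 167 FPKM in sh-Luc and 62.5 FPKM in sh-CACUL1.

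Of 27 collagen chains 2 were higher and 4 lower (14.8%), with a median of 0.01. Col1a2 had 1524 FPKM in FLAG, 3397 FPKM in FLAG-CACUL1, 1396 FPKM in sh-Luc and 301 FPKM in sh-CACUL1 and was highest in FLAG-CACUL1. Col12a1 (14.8 FPKM in FLAG and 0.624 FPKM in FLAG-CACUL1), Col5a3 (164 FPKM in FLAG and 21.96 FPKM in FLAG-CACUL1) and the basement membrane chain Col4a1 (796 FPKM in FLAG and 314 FPKM in FLAG-CACUL1) were lower. The bases TATAAA were in 3 of 23 windows of the list (13.0%) and in 12.4% of all windows.

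Relative to FLAG the enzymes that modify collagen were divided, with 6 of 24 genes higher and 5 lower. The hydroxylases and oxidases Plod1 (706 FPKM in FLAG and 208 FPKM in FLAG-CACUL1), Plod2 (199 FPKM in FLAG and 80.1 FPKM in FLAG-CACUL1), P4ha2 (346 FPKM in FLAG and 167 FPKM in FLAG-CACUL1) and Loxl2 (9.07 FPKM in FLAG and 3.56 FPKM in FLAG-CACUL1) and the disulfide isomerase P4hb (2529 FPKM in FLAG and 917 FPKM in FLAG-CACUL1) were lower, and P4ha2 also stands on the hypoxia list. The procollagen proteases and their enhancers Bmp1 (34.4 FPKM in FLAG and 78.7 FPKM in FLAG-CACUL1), Pcolce2 (0.274 FPKM in FLAG and 3.45 FPKM in FLAG-CACUL1) and Adamts2, together with P4ha3 (0.545 FPKM in FLAG and 4.65 FPKM in FLAG-CACUL1) and the lysyl oxidases Loxl1 (42.2 FPKM in FLAG and 89.7 FPKM in FLAG-CACUL1) and Loxl4 (6.699 FPKM in FLAG and 15.3 FPKM in FLAG-CACUL1), were higher. Lox, the most abundant oxidase, had 442 FPKM in FLAG and 435 FPKM in FLAG-CACUL1. Relative to sh-Luc 5 of the 24 genes were higher and 2 were lower, and the division was not the same. Plod2 (2.86), P4ha2 (1.56), Loxl2 (1.16) and P4hb (0.57) lay above sh-Luc. P4ha3 (-1.20), Loxl1 (-0.72), Pcolce2 (-0.56), Adamts2 (-0.06) and Bmp1 (-0.04) lay below it. Of the genes past 2-fold from FLAG, only Plod1 (-0.51) and Loxl4 (0.70) kept their direction.

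Some basement membrane genes and their receptors were lower. Of 27 integrins, laminins and nidogens 7 were lower and 1 was higher, and the other 19 were within 2-fold. Nidogen 1, Nid1, which links laminin to collagen IV, had 404 FPKM in FLAG, 69.7 FPKM in FLAG-CACUL1, 153 FPKM in sh-Luc and 78.3 FPKM in sh-CACUL1, and Nid2 had 3.66 FPKM in FLAG and 0.184 FPKM in FLAG-CACUL1. Of the laminin receptors, Itga6 had 44.4 FPKM in FLAG, 5.86 FPKM in FLAG-CACUL1, 8.86 FPKM in sh-Luc and 3.35 FPKM in sh-CACUL1 and Itga7 had 13.5 FPKM in FLAG, 0.712 FPKM in FLAG-CACUL1, 1.85 FPKM in sh-Luc and 7.19 FPKM in sh-CACUL1, and of the laminin chains, Lamb3 had 9.42 FPKM in FLAG and 0.156 FPKM in FLAG-CACUL1 and Lama2 had 4.89 FPKM in FLAG and 0.231 FPKM in FLAG-CACUL1. In each of these FLAG was the highest line. Perlecan, Hspg2, changed by -0.59.

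**Figure D5:**
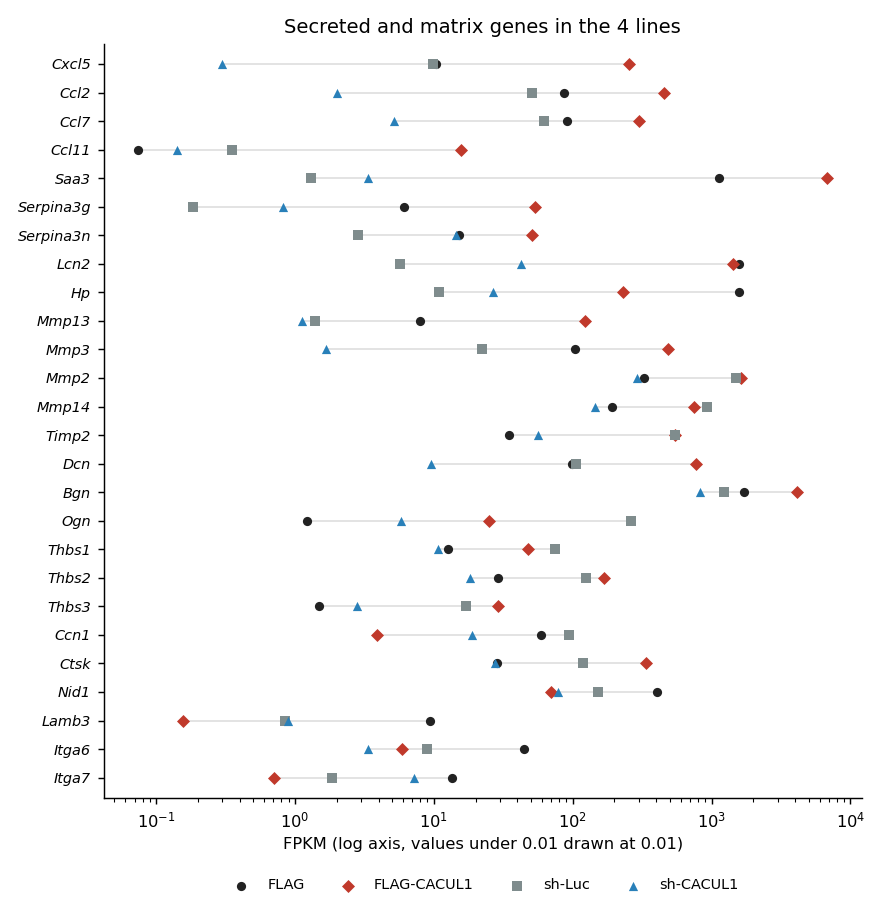
FPKM (log axis) of secreted, matrix and matrix receptor genes in the 4 lines, 1 row per gene. FLAG-CACUL1 (red diamonds) is the rightmost point for Cxcl5, Ccl2, Ccl7, Ccl11, Saa3, Mmp13, Mmp3, Dcn, Bgn and Ctsk, it overlaps sh-Luc (grey squares) for Timp2 and Mmp2, and FLAG (black circles) is rightmost for Hp, Nid1, Lamb3, Itga6 and Itga7.

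Actin and contractile genes were higher for 7 of 34 members and lower for 2. Acta2, smooth muscle actin, had 2.897 FPKM in FLAG, 23.5 FPKM in FLAG-CACUL1, 33.1 FPKM in sh-Luc and 1.27 FPKM in sh-CACUL1, Cnn2 had 11.6 FPKM in FLAG, 66.6 FPKM in FLAG-CACUL1, 147 FPKM in sh-Luc and 10.1 FPKM in sh-CACUL1 and Actn1 had 27.5 FPKM in FLAG, 72.1 FPKM in FLAG-CACUL1, 88.9 FPKM in sh-Luc and 19.97 FPKM in sh-CACUL1. Tpm1 (1.23) and Cnn3 (1.27) were higher and Tpm2 (-1.23) and Vcl (-1.03) were lower. For Acta2, Cnn2 and Actn1 the FLAG-CACUL1 value was above FLAG and below sh-Luc, and relative to sh-Luc none of the list was at least 2-fold higher and 4 were lower. Vimentin, Vim, changed by -0.76.

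Lysosomes break down the material that cells take in or set aside, and some of their proteases are also secreted. Of 36 genes 10 were at least 2-fold higher than in FLAG and none was at least 2-fold lower (median 0.62), and relative to sh-Luc 6 were higher and 0 were lower. FLAG-CACUL1 was the highest of the 4 lines for 20 of them. Ctsk, a collagen-degrading cathepsin best known from osteoclasts, had 28.7 FPKM in FLAG, 337 FPKM in FLAG-CACUL1, 119 FPKM in sh-Luc and 27.7 FPKM in sh-CACUL1. Ctsd had 525 FPKM in FLAG, 1307 FPKM in FLAG-CACUL1, 583 FPKM in sh-Luc and 251 FPKM in sh-CACUL1 and Ctsl had 493 FPKM in FLAG, 992 FPKM in FLAG-CACUL1, 488 FPKM in sh-Luc and 66.8 FPKM in sh-CACUL1, and in all 3 FLAG-CACUL1 was the highest line.

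Of the sugar- and lipid-degrading enzymes, Hexa had 116 FPKM in FLAG, 351 FPKM in FLAG-CACUL1, 298 FPKM in sh-Luc and 85.95 FPKM in sh-CACUL1, Gusb had 9.57 FPKM in FLAG, 46.4 FPKM in FLAG-CACUL1, 57.99 FPKM in sh-Luc and 42.2 FPKM in sh-CACUL1 and Gaa had 84.2 FPKM in FLAG, 196 FPKM in FLAG-CACUL1, 166 FPKM in sh-Luc and 47.4 FPKM in sh-CACUL1. Psap, the precursor of the saposins, had 974 FPKM in FLAG, 2087 FPKM in FLAG-CACUL1, 1626 FPKM in sh-Luc and 525 FPKM in sh-CACUL1, and the peptidases Dpp7 and Tpp1 changed by 2.43 and 1.07. In the hydrolases other than Gusb FLAG-CACUL1 was highest, though close to sh-Luc for Hexa and Gaa. Lamp1 (0.63) and Lamp2 (0.66), the main membrane proteins, were higher by less than 2-fold, and Lipa, the acid lipase, was lower by less than 2-fold (-0.91). Tfeb, the main regulator of these genes, changed by -0.54. Of 33 autophagy genes 2 were higher and 1 was lower (median 0.02), with Map1lc3b at 54.3 FPKM in FLAG and 127 FPKM in FLAG-CACUL1 and Sqstm1 at 382 FPKM in FLAG and 437 FPKM in FLAG-CACUL1. Macrophages are rich in lysosomes, and the macrophage genes given above were mixed in these cultures of stable 3T3-L1 lines. Lyz2, Cd14 and Itgb2 were higher, Cd68 was lower, and Csf1r, Mrc1 and Aif1 were under 1 FPKM in both lines. A part of macrophages in the lysosomal values was not tested.

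Secreted inflammatory genes were prominent among the changes. Of 29 chemokines and NF-kB feedback genes 8 were higher than in FLAG and 3 were lower, and relative to sh-Luc 11 were higher and 0 were lower. Besides Cxcl5, Ccl2, the main monocyte attractant, had 87.3 FPKM in FLAG, 451 FPKM in FLAG-CACUL1, 51.1 FPKM in sh-Luc and 1.995 FPKM in sh-CACUL1, Ccl7 had 91.5 FPKM in FLAG, 298 FPKM in FLAG-CACUL1, 62.4 FPKM in sh-Luc and 5.14 FPKM in sh-CACUL1 and Ccl11, which attracts eosinophils, had 0.0742 FPKM in FLAG, 15.8 FPKM in FLAG-CACUL1, 0.353 FPKM in sh-Luc and 0.141 FPKM in sh-CACUL1. In each of these FLAG-CACUL1 was the highest of the 4 lines and sh-CACUL1 was at or near the bottom. Il6 had 1.096 FPKM in FLAG and 4.58 FPKM in FLAG-CACUL1. The lower genes were Cx3cl1 (35.6 FPKM in FLAG and 1.37 FPKM in FLAG-CACUL1), Ccl5 (19.1 FPKM in FLAG and 4.42 FPKM in FLAG-CACUL1) and Tnfaip3 (12.5 FPKM in FLAG and 5.299 FPKM in FLAG-CACUL1), and the feedback inhibitor Nfkbia changed by -0.57. The macrophage genes Lyz2 and Cd14 were high in the same line, while Cd68 was lower there than in FLAG and Csf1r was under 1 FPKM. A part of macrophages in these values was not tested.

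The complement and acute phase list was divided, with 6 of 16 genes higher and 5 lower, while relative to sh-Luc 10 were higher and 1 was lower. Saa3, serum amyloid A of fat tissue and macrophages, had 1135 FPKM in FLAG, 6829 FPKM in FLAG-CACUL1, 1.32 FPKM in sh-Luc and 3.33 FPKM in sh-CACUL1, so that both G418-selected lines were far above both hairpin lines and FLAG-CACUL1 was the higher of the 2. Serpina3g had 6.08 FPKM in FLAG, 53.97 FPKM in FLAG-CACUL1, 0.183 FPKM in sh-Luc and 0.814 FPKM in sh-CACUL1 and Serpina3n had 15.3 FPKM in FLAG, 51.2 FPKM in FLAG-CACUL1, 2.87 FPKM in sh-Luc and 14.5 FPKM in sh-CACUL1, members of a cluster of close copies whose reads may be shared. Masp1 (1.59 FPKM in FLAG and 13.4 FPKM in FLAG-CACUL1) was higher as well. Lcn2, which binds bacterial iron carriers, had 1581 FPKM in FLAG, 1424 FPKM in FLAG-CACUL1, 5.71 FPKM in sh-Luc and 42.3 FPKM in sh-CACUL1 and did not differ 2-fold between the G418-selected lines. Haptoglobin, Hp, had 1568 FPKM in FLAG, 230.2 FPKM in FLAG-CACUL1, 10.9 FPKM in sh-Luc and 26.7 FPKM in sh-CACUL1, and Orm1 (24.4 FPKM in FLAG and 4.57 FPKM in FLAG-CACUL1), C4b (41.5 FPKM in FLAG and 15.6 FPKM in FLAG-CACUL1) and Cfb (21.4 FPKM in FLAG and 8.504 FPKM in FLAG-CACUL1) were lower too.

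Interferon-stimulated genes were higher for 9 of 41 members and lower for 1, with a median of 0.48, and relative to sh-Luc 23 were higher and 0 were lower. FLAG-CACUL1 was the highest line for 31 of the 41 genes. Interferon signals reach these genes through complexes with STAT2 and IRF9, which bind a response element made of GAAA repeats. A pair of GAAA in the same direction with 2 bases between was found on either strand in 12 of 33 windows of the list (36.4%) and in 2.98% of all windows. The stretches before Isg15, at chr4:156200819-156200968 (minus strand), and Ifit1, at chr19:34640739-34640888 (plus strand), hold 3 and 2 such matches, printed in capitals as before.
Isg15: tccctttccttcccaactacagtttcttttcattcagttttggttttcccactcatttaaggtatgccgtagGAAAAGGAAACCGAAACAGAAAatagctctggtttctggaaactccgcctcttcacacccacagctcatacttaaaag
Ifit1: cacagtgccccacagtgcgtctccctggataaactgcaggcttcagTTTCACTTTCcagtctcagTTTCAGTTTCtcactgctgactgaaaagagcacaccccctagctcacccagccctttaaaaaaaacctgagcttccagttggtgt

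Isg15, a ubiquitin-like modifier, had 79.8 FPKM in FLAG, 189 FPKM in FLAG-CACUL1, 34.4 FPKM in sh-Luc and 1.62 FPKM in sh-CACUL1, and Ifit1, a sensor of foreign RNA caps, had 29.6 FPKM in FLAG, 72.5 FPKM in FLAG-CACUL1, 17.5 FPKM in sh-Luc and 0.0258 FPKM in sh-CACUL1. The transcription factor Stat2 (23.3 FPKM in FLAG and 77.7 FPKM in FLAG-CACUL1), the antiviral enzymes Oas2 (5.76 FPKM in FLAG and 24.4 FPKM in FLAG-CACUL1) and Eif2ak2 (16.7 FPKM in FLAG and 37.7 FPKM in FLAG-CACUL1) and the GTPase Irgm1 (11.4 FPKM in FLAG and 40.6 FPKM in FLAG-CACUL1) were higher. Gbp2 was the one lower gene (18.1 FPKM in FLAG and 8.28 FPKM in FLAG-CACUL1), and Irf7 (-0.76), Irf1 (-0.74) and Cxcl10 (-0.65) lay below FLAG by less than 2-fold. Ifit1 was near 0 in sh-CACUL1.

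Antigen presentation did not follow. Of 23 MHC class I and peptide loading genes none was at least 2-fold higher and 3 were lower, while relative to sh-Luc 13 were higher. B2m, the light chain, had 3255 FPKM in FLAG, 6284 FPKM in FLAG-CACUL1, 1601 FPKM in sh-Luc and 418 FPKM in sh-CACUL1, but H2-K1 had 611 FPKM in FLAG, 344 FPKM in FLAG-CACUL1, 48.9 FPKM in sh-Luc and 45.6 FPKM in sh-CACUL1 and the immunoproteasome subunits Psmb8 and Psmb9 changed by -0.81 and -1.76. Both G418-selected lines thus had more H2-K1 than both hairpin lines, with FLAG the higher. MHC heavy chain genes are close copies and their values are uncertain for that reason.

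Among cell cycle genes the largest change was that of Ccnd1, a regulator of G1. In the list of G1 regulators 4 of 17 genes were higher and 2 were lower. Cyclin D1, Ccnd1 (chr7:144929931-144939831), had 6.46 FPKM in FLAG, 81.3 FPKM in FLAG-CACUL1, 90.8 FPKM in sh-Luc and 25.1 FPKM in sh-CACUL1, with FLAG lowest and FLAG-CACUL1 close to sh-Luc, and its partner Cdk4 had 187 FPKM in FLAG, 393 FPKM in FLAG-CACUL1, 304 FPKM in sh-Luc and 72.5 FPKM in sh-CACUL1. The inhibitors Cdkn2a (222 FPKM in FLAG and 498 FPKM in FLAG-CACUL1) and Cdkn2b (37.1 FPKM in FLAG and 83.8 FPKM in FLAG-CACUL1) were higher, while Cdkn1b, which encodes p27 (30.7 FPKM in FLAG and 12.3 FPKM in FLAG-CACUL1), and Rb1 (9.196 FPKM in FLAG and 3.35 FPKM in FLAG-CACUL1) were lower. Cdk2, the kinase in the full name of CACUL1, changed by 0.61.

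Of 51 replication and mitosis genes none was at least 2-fold higher and 6 were lower (11.8%, median -0.30), with Tk1 at 7.57 FPKM in FLAG and 1.97 FPKM in FLAG-CACUL1, Ccnf at 5.97 FPKM in FLAG and 1.21 FPKM in FLAG-CACUL1 and Cdt1 at 10.8 FPKM in FLAG and 3.45 FPKM in FLAG-CACUL1. Mki67 had 3.402 FPKM in FLAG, 1.34 FPKM in FLAG-CACUL1, 4.62 FPKM in sh-Luc and 1.97 FPKM in sh-CACUL1. Relative to sh-Luc 32 of them were lower and the median was -1.15, and sh-Luc held the highest value of Mki67. Of 23 p53 targets 6 were higher, among them Eda2r (2.71 FPKM in FLAG and 15.5 FPKM in FLAG-CACUL1), Aen (5.77 FPKM in FLAG and 24.7 FPKM in FLAG-CACUL1), Zmat3 (3.801 FPKM in FLAG and 15.1 FPKM in FLAG-CACUL1) and Ccng1 (37.5 FPKM in FLAG and 99.2 FPKM in FLAG-CACUL1), and 2 were lower, Gdf15 (5.498 FPKM in FLAG and 0.592 FPKM in FLAG-CACUL1) and Btg2 (16.1 FPKM in FLAG and 5.701 FPKM in FLAG-CACUL1). Cdkn1a (0.51) and Mdm2 (-0.43) were within 2-fold. In the BCL2 family Bad (15.7 FPKM in FLAG and 50.2 FPKM in FLAG-CACUL1), Bid (15.1 FPKM in FLAG and 36.4 FPKM in FLAG-CACUL1) and Bcl2 (0.791 FPKM in FLAG and 3.06 FPKM in FLAG-CACUL1) were higher and Bnip3 was lower.

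In the signalling lists most members were within 2-fold and a few stood out. The TGF-β list had 4 of 26 genes higher and 5 lower. The inhibitory Smad7 had 17.04 FPKM in FLAG, 3.22 FPKM in FLAG-CACUL1, 1.95 FPKM in sh-Luc and 0.373 FPKM in sh-CACUL1, the receptor Acvr1b had 35.2 FPKM in FLAG and 6.53 FPKM in FLAG-CACUL1, and Acvr2b and Ltbp3 changed by -1.59 and -1.24. The ligand Gdf11 had 1.26 FPKM in FLAG, 18.5 FPKM in FLAG-CACUL1, 8.85 FPKM in sh-Luc and 0.775 FPKM in sh-CACUL1, and the antagonist Fst (3.67 FPKM in FLAG and 16.9 FPKM in FLAG-CACUL1), Fstl1 (224 FPKM in FLAG and 656 FPKM in FLAG-CACUL1) and Ltbp1 (7.05 FPKM in FLAG and 21.04 FPKM in FLAG-CACUL1) were higher. Tgfb1 changed by -0.39. In the BMP list 2 genes were higher and 4 lower of 19, with Smad6 (9.41 FPKM in FLAG and 2.82 FPKM in FLAG-CACUL1) and Id3 (56.4 FPKM in FLAG and 21.6 FPKM in FLAG-CACUL1) lower and Bmper (10.5 FPKM in FLAG and 26.1 FPKM in FLAG-CACUL1) and Id1 (37.7 FPKM in FLAG and 76.5 FPKM in FLAG-CACUL1) higher.

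Among Wnt genes 4 of 22 were higher and 1 was lower. The secreted Wnt binder Sfrp2 had 1.49 FPKM in FLAG, 14.7 FPKM in FLAG-CACUL1, 2.33 FPKM in sh-Luc and 0.347 FPKM in sh-CACUL1, the receptor Fzd1 had 8.14 FPKM in FLAG, 41.4 FPKM in FLAG-CACUL1, 47.5 FPKM in sh-Luc and 5.88 FPKM in sh-CACUL1 and β-catenin, Ctnnb1, had 107 FPKM in FLAG, 254 FPKM in FLAG-CACUL1, 170.3 FPKM in sh-Luc and 77.1 FPKM in sh-CACUL1. Apcdd1 was higher (4.36 FPKM in FLAG and 10.3 FPKM in FLAG-CACUL1) and Tcf7l1 was lower (76.6 FPKM in FLAG and 36.7 FPKM in FLAG-CACUL1). In the Notch list 2 of 14 were lower, Lfng (5.18 FPKM in FLAG and 0.127 FPKM in FLAG-CACUL1) and Rbpj (34.8 FPKM in FLAG and 15.6 FPKM in FLAG-CACUL1).

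In the insulin list 4 of 22 genes were higher and 6 lower. The insulin-responsive glucose transporter Slc2a4 had 41.7 FPKM in FLAG, 0.101 FPKM in FLAG-CACUL1, 1.13 FPKM in sh-Luc and 12.3 FPKM in sh-CACUL1, the receptor Insr had 16.6 FPKM in FLAG and 5.43 FPKM in FLAG-CACUL1, and Irs2 (4.63 FPKM in FLAG and 1.36 FPKM in FLAG-CACUL1), Tbc1d4 (9.63 FPKM in FLAG and 3.18 FPKM in FLAG-CACUL1) and Gys1 (229 FPKM in FLAG and 72.8 FPKM in FLAG-CACUL1) were lower. Irs1 had 3.47 FPKM in FLAG and 12.3 FPKM in FLAG-CACUL1, Akt1 had 80.4 FPKM in FLAG and 198 FPKM in FLAG-CACUL1 and Pik3r1 and Grb14 changed by 1.30 and 1.28. The receptor substrates thus moved in opposite directions. Of 10 IGF genes 3 were higher and 1 was lower: Igfbp5 had 4.402 FPKM in FLAG, 21.8 FPKM in FLAG-CACUL1, 0.527 FPKM in sh-Luc and 0.05599 FPKM in sh-CACUL1, Igf1 had 0.459 FPKM in FLAG and 2.58 FPKM in FLAG-CACUL1, Igf2r had 36.8 FPKM in FLAG and 76.7 FPKM in FLAG-CACUL1 and Igfbp4 had 480.0 FPKM in FLAG, 181 FPKM in FLAG-CACUL1, 9.72 FPKM in sh-Luc and 19.1 FPKM in sh-CACUL1.

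Stress pathways gave mixed lists. Amino acid and unfolded protein stress is relayed by ATF4, whose list had 8 of 28 genes lower and 2 higher. Atf3 (10.2 FPKM in FLAG and 1.19 FPKM in FLAG-CACUL1), Nupr1 (573 FPKM in FLAG and 148 FPKM in FLAG-CACUL1), Trib3 (89.5 FPKM in FLAG and 32.7 FPKM in FLAG-CACUL1), Slc7a5 (58.3 FPKM in FLAG and 16.7 FPKM in FLAG-CACUL1), Psat1 (123 FPKM in FLAG and 48.5 FPKM in FLAG-CACUL1) and Ppp1r15a (75.3 FPKM in FLAG and 31.2 FPKM in FLAG-CACUL1) were lower, but Atf5 had 46.7 FPKM in FLAG, 336 FPKM in FLAG-CACUL1, 159 FPKM in sh-Luc and 97.3 FPKM in sh-CACUL1 and Phgdh had 41.6 FPKM in FLAG and 94.8 FPKM in FLAG-CACUL1. Atf4 itself changed by -0.28 and Asns by -0.12. The bases TGATGNAAT were in 4 of 26 windows of this list (15.4%) and in 0.816% of all windows, and TGATGCAAT, which is contained in it, in 3 (11.5%) and 0.167%. Among 23 chaperone genes of the endoplasmic reticulum 4 were lower and 1 was higher, with Hspa5 at 1441 FPKM in FLAG and 669.6 FPKM in FLAG-CACUL1, Xbp1 at 115 FPKM in FLAG and 41.8 FPKM in FLAG-CACUL1 and Dnajc3 at 8.58 FPKM in FLAG and 19.4 FPKM in FLAG-CACUL1.

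The antioxidant list of NRF2 had 4 of 24 genes lower, including Hmox1 (924 FPKM in FLAG, 361 FPKM in FLAG-CACUL1, 232 FPKM in sh-Luc and 187 FPKM in sh-CACUL1) and Abcc1 (59.1 FPKM in FLAG and 20.3 FPKM in FLAG-CACUL1), and 2 higher, Gsta4 (13.6 FPKM in FLAG and 37.3 FPKM in FLAG-CACUL1) and Prdx1 (127 FPKM in FLAG and 314 FPKM in FLAG-CACUL1). Nqo1 changed by -0.33. The bases TGACNNNGC were in 6 of 23 windows of this list (26.1%) and in 10.2% of all windows. Of 15 iron genes 4 were lower and 3 were higher. The uptake receptor Tfrc (24.1 FPKM in FLAG and 8.92 FPKM in FLAG-CACUL1), Hfe (4.8 FPKM in FLAG and 0.91 FPKM in FLAG-CACUL1), the iron sensor Aco1 (32.2 FPKM in FLAG and 13.2 FPKM in FLAG-CACUL1) and the ferroxidase Heph (5.82 FPKM in FLAG and 2.25 FPKM in FLAG-CACUL1) were lower, the storage gene Fth1 (4665 FPKM in FLAG and 12208 FPKM in FLAG-CACUL1), the exporter Slc40a1 (9.21 FPKM in FLAG and 19.5 FPKM in FLAG-CACUL1) and the reductase Steap4 (7.199 FPKM in FLAG and 17.9 FPKM in FLAG-CACUL1) were higher, and Ftl1 was just under the cut-off (0.94). Ferritin genes have processed copies, so that their values are uncertain. Of 18 heat shock genes 2 were higher, Hspb8 (10.3 FPKM in FLAG and 27.3 FPKM in FLAG-CACUL1) and Dnaja1 (9.53 FPKM in FLAG and 24.5 FPKM in FLAG-CACUL1), and 0 were lower.

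Nuclear receptors and their cofactors, the class that CACUL1 is studied with, were mostly within 2-fold. Of 28 receptors other than Pparg 3 were higher and 3 were lower, with Nr2f2 at 3.94 FPKM in FLAG and 15.9 FPKM in FLAG-CACUL1 and Nr4a1 at 11.5 FPKM in FLAG, 2.38 FPKM in FLAG-CACUL1, 15.9 FPKM in sh-Luc and 9.05 FPKM in sh-CACUL1. Rxra, the partner of PPARγ, changed by 0.50. Of 38 coregulators and sirtuins 1 was higher, Sirt1 (0.602 FPKM in FLAG and 2.24 FPKM in FLAG-CACUL1), and 2 were lower, Ppargc1b (6.11 FPKM in FLAG and 0.653 FPKM in FLAG-CACUL1) and Hdac5 (31.1 FPKM in FLAG and 10.8 FPKM in FLAG-CACUL1). Sirt1 was low in every line, with 2.69 FPKM in sh-Luc and 1.35 FPKM in sh-CACUL1. FLAG was thus its lowest line, and FLAG-CACUL1 lay slightly below sh-Luc (-0.19). Kdm1a, which encodes LSD1, had 19.4 FPKM in FLAG, 17.1 FPKM in FLAG-CACUL1, 18.9 FPKM in sh-Luc and 13.1 FPKM in sh-CACUL1 and was level in 3 lines. Direct repeats of AGGTCA with 1 base between, the element of PPARγ and its partner, were in 0 of 23 windows of the lipid droplet list and in 0.0335% of all windows. Only exact repeats were counted, and 11 of all 32851 windows held one. So rare a match could hardly be met in 23 windows. The count therefore cannot tell whether the lipid droplet genes carry the element.

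Of 16 cullins, their partners and Cacul1, 3 were higher and none was at least 2-fold lower: Rbx1, the RING subunit of cullin ligases (19.1 FPKM in FLAG and 53.6 FPKM in FLAG-CACUL1), Cul7 (13.8 FPKM in FLAG and 35.8 FPKM in FLAG-CACUL1) and Nedd8, the modifier that activates cullins (75.6 FPKM in FLAG and 165 FPKM in FLAG-CACUL1). For each of these sh-Luc was level with FLAG-CACUL1, at 53.7, 35.3 and 181 FPKM. The gene expression machinery was near the background. Of 82 cytosolic ribosomal proteins 2 were higher and 0 were lower (median 0.04), of 41 proteasome genes 4 were higher and 1 was lower (median 0.29), and of 53 translation initiation genes 2 were higher and 3 were lower (median 0.09). The near-identical copies Eif3j1 (14.5 FPKM in FLAG, 0.0936 FPKM in FLAG-CACUL1, 0.0564 FPKM in sh-Luc and 24.7 FPKM in sh-CACUL1) and Eif3j2 (7.3 FPKM in FLAG, 27.5 FPKM in FLAG-CACUL1, 25.7 FPKM in sh-Luc and 0.0357 FPKM in sh-CACUL1) exchanged places between lines, and how reads were divided between them is uncertain.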

How the data were processed

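RNA-seq of 4 stable 3T3-L1 lines was used, 1 sample each. The values the authors deposited are FPKM, with 13110 rows, each named by its RefSeq transcripts. Library preparation, sequencing and selection of changed genes at 2-fold were done by a company. The build is mm10 per the labels, and the aligner and the FPKM program are not given in the sources used here. No value was exactly 0, and the lowest lay far below 1 fragment.

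Rows were matched to symbols through RefSeq (12995 rows) or GENCODE M21 (68 rows), 47 rows kept their identifier, and rows sharing a symbol were summed, leaving 13104 genes. The change was the difference of log2(FPKM + 1), and 2-fold was the cut-off. Results of some genes that the rule names are not reported here. The calculation was tested on simulated data. With 1 sample per condition no test was made, and no counting error was computed. Promoter windows came from RefSeq on GRCm38.p6, the assembly of mm10. Python 3.11.15 with pandas 2.3.3 and numpy 2.4.6 was used.

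The gene lists were chosen with earlier results of these data known. Named genes were the 10 largest changes each way among genes with at least 1 FPKM in both lines, Cacul1, and in each list its defining members and the 3 with the largest change among those with at least 1 FPKM in either line. Lists whose share of higher or lower genes was at least 2 times that over all genes (43 of 58) were described by their members. Alternatives were other pseudocounts, filters, scalings, summing rules, a cut-off of 3-fold and sh-Luc as control. Chosen for naming after their values were seen were Adam8, Adamts5, Adamts9, Ccl2, Ccl5, Ccl7, Col1a2, Ctsd, Ctsl, Ebp, Insig2, Lama2, Ldah, Loxl4, Lrp1, Mmp11, Mmp14, Mmp19, Mmp2, Mmp3, Pgam2, Pik3r1, Scap and Tcf7l1.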

Additional observations from a re-analysis of the deposited data

How the results depend on the processing

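No paired analysis was possible because each group had 1 sample and the groups share replicate number 1 by default. For the same reason no replicate could be left out. Of 1931 genes past 2-fold, the counts stayed within 1.5 times under filters of 1 FPKM, both scalings, the choice of row per symbol and sh-Luc as control. With sh-Luc as control, however, the genes were largely others. Of the 946 genes lower than FLAG, 135 were also at least 2-fold lower than sh-Luc and 92 were at least 2-fold higher. Of the 985 genes higher than FLAG, 196 were also at least 2-fold higher than sh-Luc and 50 were at least 2-fold lower. With a pseudocount of 0.1 there were 3172 genes, 1792 higher and 1380 lower, and with no pseudocount 3791, of which 2203 were higher and 1588 lower. At a cut-off of 3-fold there were 665, with 283 higher and 382 lower. Median-of-ratios scaling lowered the median of all genes from 0.09 to 0, and quantile normalization to 0.04, which is why they moved genes from the higher to the lower side. Of the 366 genes named, 298 were past 2-fold, and no direction of theirs changed with the pseudocount, the scaling or the row per symbol. Median-of-ratios scaling took 24 of them under 2-fold and quantile normalization took 8.

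The control decided more than the processing. With sh-Luc in place of FLAG, 23 of the 58 list medians changed sign. In 4 of them the median against FLAG was at least 0.5 from 0, those of hypoxia targets (0.89), glycolysis (0.67), the clock (0.0688) and mesenchymal markers (-0.0666). In the other 19 it was under 0.5, and among lists of at least 10 genes the widest turns were those of MHC class I genes (-0.27 to 1.17), cholesterol export (-0.33 to 0.54) and actin genes (0.46 to -0.30). Apart from the 4 named first, 14 list medians moved by more than 0.5, with or without a change of sign. Among them were adipocyte markers (-4.02 to -0.95), triglyceride assembly (-1.20 to -0.18), lipid droplets (-1.20 to -0.17) and fatty acid synthesis (-0.89 to -0.14). The cause was not tested. Of the named genes 147 changed sign, 110 past 2-fold from FLAG and 37 within it. The differences from sh-Luc of the 110 follow on the log2 scale. Lower than FLAG and at least 2-fold higher than sh-Luc were Abca1 1.54, Alpl 1.25, Ankrd37 2.61, Apoc1 1.93, Bhlhe40 1.12, Bnip3 1.96, C4b 3.13, Cfb 2.81, Dgat2 2.76, Dlk1 5.05, Egln3 1.73, Ero1a 1.51, Gys1 1.67, Hp 4.28, Hsd11b1 1.62, Igfbp4 4.08, Loxl2 1.16, Mmp11 1.62, Mt2 2.07, Nr1h3 1.31, P4ha2 1.56, Plod2 2.86, Psmb9 1.17, Sbsn 1.01. Lower than FLAG and above sh-Luc by less were Abcc1 0.0966, Abcg1 0.50, Acvr1b 0.26, Acvr2b 0.0768, Adm 0.23, Bhlhe41 0.0792, Ccl5 0.92, Cd68 0.32, Ciart 0.27, Col12a1 0.14, Cox7a1 0.17, Eif3j1 0.04997, Fads2 0.28, Gapdh 0.46, Gbp2 0.82, Gdf15 0.11, Gpat3 0.17, Hk2 0.88, Hmox1 0.63, Hspa5 0.79, Insig2 0.41, Ltbp3 0.0396, Ltc4s 0.28, Nupr1 0.44, P4hb 0.57, Pfkp 0.70, Ppp1r15a 0.33, Scp2 0.23, Sema3g 0.50, Sema4b 0.28, Slc25a1 0.23, Slc2a1 0.17, Smad6 0.17, Smad7 0.52, Tnfaip3 0.59, Trib3 0.35, Vegfa 0.86, Xbp1 0.21. Higher than FLAG and at least 2-fold lower than sh-Luc were Adamts5 -1.45, Apod -1.85, Cnn2 -1.13, Cnn3 -1.09, Fst -1.21, Gas1 -1.61, Itgbl1 -1.14, Ogn -3.36, P4ha3 -1.20, Pdgfra -1.04, Sema3a -1.32, Zfp521 -1.48. Higher than FLAG and below sh-Luc by less were Acta2 -0.47, Actn1 -0.30, Adamts2 -0.0649, Apcdd1 -0.52, Bid -0.36, Bmp1 -0.0442, Ccnd1 -0.16, Clcn7 -0.33, Dnaja1 -0.32, Dnajc3 -0.0544, Fzd1 -0.19, Gsta4 -0.73, Gusb -0.32, Hspb8 -0.27, Id1 -0.15, Igf2r -0.58, Itgb2 -0.14, Loxl1 -0.72, Map1lc3b -0.13, Mfap4 -0.12, Mmp14 -0.31, Nedd8 -0.14, Pcolce2 -0.56, Phgdh -0.68, Pik3r1 -0.61, Postn -0.26, Rbx1 -0.00425, S100a4 -0.61, Sirt1 -0.19, Sox9 -0.34, Srsf1 -0.16, Srsf3 -0.49, Srsf5 -0.48, Srsf6 -0.21, Thbs1 -0.65, Timp2 -0.00468. Within 2-fold of FLAG and at least 2-fold from sh-Luc on the other side were 16 genes, Aspn -2.34, Cxcl10 1.73, Des 1.70, Elovl6 -1.25, Eno1 1.15, Fkbp5 -1.77, H2-K1 2.79, Lcn2 7.73, Ldha 1.71, Pgam1 1.24, Pgk1 2.24, Pkm 1.16, Psmb8 4.04, Sgk1 -2.91, Tgfb1 1.07, Tsc22d3 -2.12.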

Other observations

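Families of genes that share a symbol prefix were also counted, over the 335 families with at least 5 members of at least 1 FPKM in FLAG or FLAG-CACUL1. They were looked at after the values were seen, and the counts are descriptions. In 18 families at least 40% of the members were at least 2-fold higher or lower in FLAG-CACUL1 than in FLAG. Over all 11005 genes under the same filter, 985 were higher and 946 were lower. A gene can pass this filter through the line where it is high, and in a family of 5 members 2 reach the share of 40%. The Serpina3 cluster, secreted inhibitors of proteases, had 5 of 5 members higher, Serpina3c, Serpina3g, Serpina3h, Serpina3m and Serpina3n, and the same 5 were higher relative to sh-Luc. Serpina3c had 1.84 FPKM in FLAG, 13.3 FPKM in FLAG-CACUL1, 1.18 FPKM in sh-Luc and 1.72 FPKM in sh-CACUL1. These are near-identical neighbours, so that the 5 values are not independent. Of 8 genes with the Gas prefix, a name given to several unrelated genes first found in growth-arrested fibroblasts, 5 were higher. Gas1, a membrane protein that modulates Hedgehog signals, had 27.5 FPKM in FLAG, 164 FPKM in FLAG-CACUL1, 504 FPKM in sh-Luc and 66.8 FPKM in sh-CACUL1, and Gas6, the ligand of the TAM receptor kinases, had 84.8 FPKM in FLAG, 380.5 FPKM in FLAG-CACUL1, 82.9 FPKM in sh-Luc and 71.4 FPKM in sh-CACUL1. Gas1 was highest in sh-Luc, and Gas6 was highest in FLAG-CACUL1 and level in FLAG and sh-Luc.

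Among transcriptional and splicing families, 3 of 6 Tle genes, Groucho-type corepressors, were higher, with Tle5 at 129.9 FPKM in FLAG, 399 FPKM in FLAG-CACUL1, 316 FPKM in sh-Luc and 79.2 FPKM in sh-CACUL1. Of 10 Srsf splicing factors 4 were higher, Srsf1, Srsf3, Srsf5 and Srsf6, and none was higher or lower by 2-fold relative to sh-Luc. Of 6 X-linked Armcx genes 3 were higher, led by Armcx6 (0.677 FPKM in FLAG and 3.53 FPKM in FLAG-CACUL1). Among enzymes, 4 of 8 Dhrs dehydrogenases of retinoids and steroids were lower and 1 was higher, with Dhrs9 at 12.8 FPKM in FLAG and 5.57 FPKM in FLAG-CACUL1. Of 10 semaphorins, 4 were lower, Sema3g, Sema4b, Sema4g and Sema6d, and 2 were higher, Sema3a and Sema3c. Sema3c, which is secreted by fat cells and stroma, had 8.24 FPKM in FLAG, 31.5 FPKM in FLAG-CACUL1, 15.7 FPKM in sh-Luc and 5.48 FPKM in sh-CACUL1. Of 6 chloride channel and exchanger genes of the Clcn family 3 were lower and 2 were higher, and Clcn7, the lysosomal exchanger, had 14.2 FPKM in FLAG and 29.5 FPKM in FLAG-CACUL1.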
